A study of Arabidopsis halleri with 24 samples.

Results

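The high-zinc response of roots was measured in the accumulating bulk, a pool of plants that accumulate zinc, by setting 3 ATH1 arrays of roots kept on high-zinc medium against 3 arrays of control roots of the same bulk. The arrays were assigned by their titles, and they make up 6 of the 24 arrays of the series. The comparison itself was chosen with earlier results of these data known. All 22746 probe sets other than the array's control probe sets were considered, and 12489 of them passed a filter on low signals and were tested. The other 6 root arrays, from the non-accumulating bulk, served for the estimate of spread and for a comparison of the responses. No probe set passed the test for a zinc response in the accumulating roots, so every difference given here is a measured difference between 2 sets of arrays and not a called change.

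The high-zinc group was accumulating bulk on 25 µM zinc according to its treatment label, and the control group was accumulating bulk with no zinc treatment in its labels. Non-accumulating bulk with and without the same high-zinc medium formed the other pair. All 4 groups were whole root systems recorded as Arabidopsis halleri and given the same developmental stage, and all plants grew indoors with 10 h of light on a complete mineral medium. The bulks are known to come from pooled offspring of A. halleri crossed with A. petraea, which the titles do not give. Whether the 3 arrays of a group came from separate plants or pools is not in the labels, so the p-values reflect the spread between arrays alone, which may be technical. How long the zinc was given is not stated. The first replicate among the non-accumulating controls has the source name halleri in place of a bulk, and its title decided its group here.

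Zinc and iron meet at the root surface. Plants take up both as divalent ions, partly through the same transporters of the ZIP family, and surplus zinc can hinder iron supply. Iron-starved Arabidopsis roots answer with a cascade of bHLH transcription factors and small IMA peptides, and they secrete iron-mobilising coumarins. Surplus zinc is known to be bound by nicotianamine and other chelators, pumped into vacuoles by metal tolerance proteins (MTP), or loaded into the xylem for transport to the shoot, which is very active in A. halleri. Many of the best known genes of zinc hyperaccumulation were not analysed here.

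The arrays carried root RNA with little green tissue. Over 10 green tissue markers, the summed signal was 312 to 369 in high-zinc roots, against 335 to 454 in control roots and 16743 to 34982 in leaves of the same bulk. The 2 root hair markers named in the probe table, EXPA7 and EXPA18, summed to 208 to 379 in high-zinc roots, against 127 to 319.6 in control roots and 84.0 to 120.1 in leaves. Of the xylem and phloem markers, 0 of 10 were matched to a probe set, so vascular tissue was not checked. The log2 ratio of 3' to 5' signal, a sign of RNA integrity, was 1.42 to 1.51 for GAPDH in high-zinc roots, against 1.34 to 1.54 in control roots. For actin it was 1.24 to 1.36 in high-zinc roots, against 1.03 to 1.26 in control roots, so the groups overlapped only at their ends, and a part of RNA integrity in the results was not tested. In pooled organs of this kind, fewer cells of a type and less RNA per cell cannot be told apart.

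The roots of the accumulating bulk gave no zinc response that stood out from the spread between arrays. By limma with Benjamini-Hochberg adjustment, 0 of 12489 probe sets (0%) passed an adjusted p of 0.05, and the smallest adjusted p was 0.9998. At an unadjusted p under 0.05 there were 361 probe sets (2.89%), 177 of them higher in high-zinc roots (1.42%) and 184 lower (1.47%). This was fewer than an even spread of p-values would place there. The same count in the non-accumulating bulk was 1018 probe sets (8.15%), 3.9% higher and 4.25% lower. The 3 high-zinc arrays lay wholly above the 3 control arrays for 581 probe sets (4.65%) and wholly below for 457 (3.66%), together 8.31% of those tested. A single probe set tested alone by exact permutation cannot go below p = 0.1 with 3 arrays against 3.

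**Figure D1:**
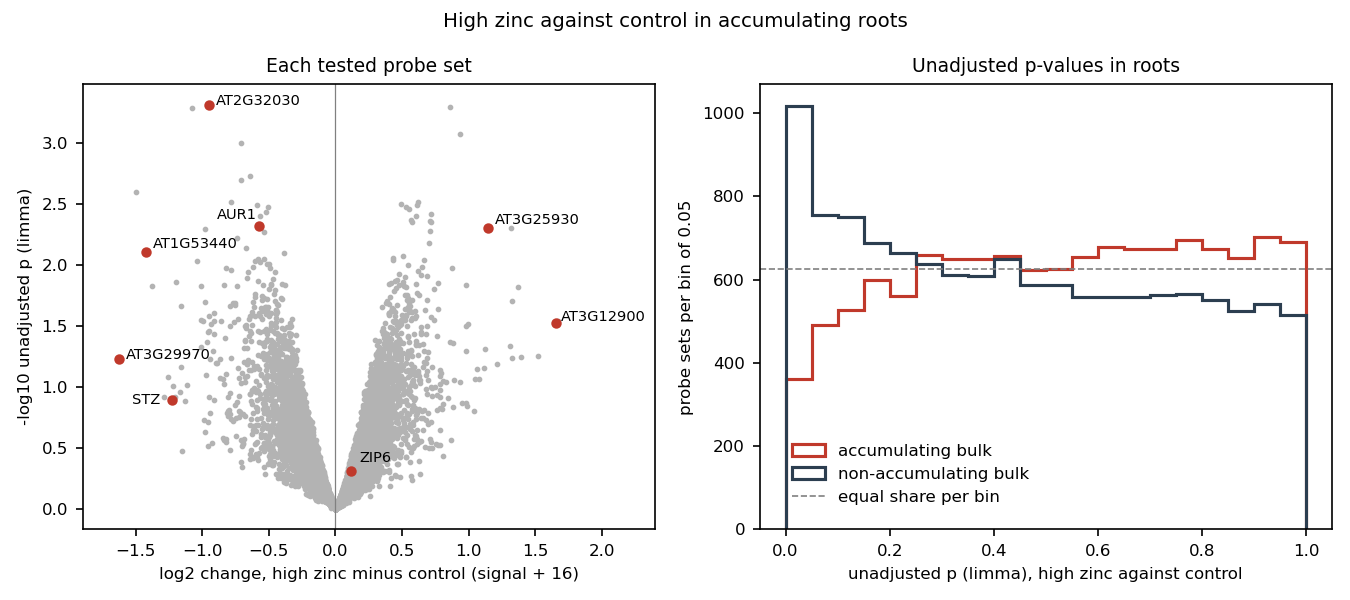
Left, log2 difference (high zinc minus control, signal + 16) and -log10 unadjusted p from limma for each of the 12489 probe sets in accumulating roots. Right, probe sets per bin of unadjusted p in the accumulating (red) and non-accumulating (dark) bulk, with a dashed line at equal shares. In the accumulating bulk the lowest bin holds 361 probe sets and lies under the line, and in the non-accumulating bulk it holds 1018.

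The precision of the comparison sets what it could have missed. The median 95% interval reached 0.44 to either side on the log2 scale of the signal plus 16, a factor of 1.36. For 89.8% of the probe sets tested the whole interval lay inside a 2-fold difference either way on this scale. The added 16 shrinks ratios at low signal, so a difference over 2-fold in the signal itself can lie inside these limits. Differences over 2-fold on this scale were measured for 38 probe sets (0.304%), 17 higher and 21 lower in high-zinc roots. The 2 groups of arrays were free of overlap for 13 of them. A single named gene stood behind 13 of the 38. The number depended on single arrays: it was 155 without control replicate 2, with 66 higher and 89 lower, and 41 to 76 with any other accumulating root array left out. The median difference over all probe sets was 0.01.

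The genes of coumarin synthesis all averaged higher in high-zinc roots, but 1 of the 3 control arrays was as high as the high-zinc arrays. AT3G12900 encodes scopoletin 8-hydroxylase, which makes fraxetin, the catechol coumarin that reduces and binds iron. Its signal was 715, 1282 and 1004 in the high-zinc roots, against 120.2, 1215 and 169 in the control roots (replicates 1, 2 and 3 in each case). Control replicate 2 thus lay within the high-zinc range and controls 1 and 3 well below it, and the log2 difference was 1.65 (SE 0.68, 95% interval 0.19 to 3.12). AT3G13610 encodes feruloyl-CoA 6'-hydroxylase, the entry enzyme of the pathway, and had signals of 2617, 3099.8 and 3133 in high-zinc roots, against 1243, 4071 and 972 in control roots. Here control replicate 2 was the highest of all 6 arrays, and the difference was 0.78 (SE 0.45, 95% interval -0.19 to 1.76). AT1G28680, which encodes coumarin synthase, gave 766, 1008 and 785 in high-zinc roots, against 482, 1297 and 339 in control roots, again with control 2 highest, at 0.49 (SE 0.49, 95% interval -0.56 to 1.54). BGLU42, a beta-glucosidase that releases coumarins from their glucosides for secretion, was nearly level with 138, 201 and 205 in high-zinc roots, against 138, 179.5 and 157 in control roots.

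As a list, 4 of 9 coumarin genes were named and tested. All 4 had a higher mean in high-zinc roots, as did 51.9% of all probe sets tested. Their median difference was 0.64, beside 0.01 over all probe sets tested, and 0 of the 4 had high-zinc arrays wholly above the controls (background 4.65%). The summed signal of the 4 genes was 4236 to 5591 in high-zinc roots and 1637 to 6763 in control roots. The list's median was 1.22 without control replicate 2, 0.45 without control 1 and 0.27 without control 3. For AT3G12900 alone the difference was 2.64 without control 2, where limma gave it an adjusted p of 0.209, and 1.05 without control 1 and 1.27 without control 3.

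The same arrangement of arrays was then looked for elsewhere, after the values had been seen. Of the 17 probe sets over 2-fold higher in high-zinc roots, 8 had control replicate 2 inside or above the high-zinc range and the other two controls below it. The same count was not made for control 1 or control 3, nor over all probe sets tested, so it does not single out control 2. Besides AT3G12900 these were AT3G61930, AT5G48480 and 5 probe sets with no single gene in the probe table. The probe set 250983_at had the highest difference of the whole comparison, with 242, 526 and 349.6 in high-zinc roots, against 24.4, 503 and 59.2 in control roots, at 1.67 (SE 0.68, 95% interval 0.20 to 3.14). The probe set 254550_at gave 538, 1139.7 and 896 in high-zinc roots, against 135, 1347 and 104 in control roots. For AT3G61930 the signals were 86.4, 161 and 139 in high-zinc roots, against 32.8, 159 and 2.15 in control roots. In these 3, control replicate 2 reached the high-zinc arrays and controls 1 and 3 stayed below all of them. The remaining 4 were AT5G48480 (1.05), 251545_at (1.32), 254687_at (1.31) and 262412_at (1.08). AT5G48480 and 254687_at met the rule, but a different control moved their difference most. For AT5G48480 it was 0.46 without control 1, beside 1.42 without control 2 and 1.28 without control 3. For 254687_at it was 0.69 without control 3, beside 1.60 without control 1 and 1.65 without control 2.

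**Figure D2:**
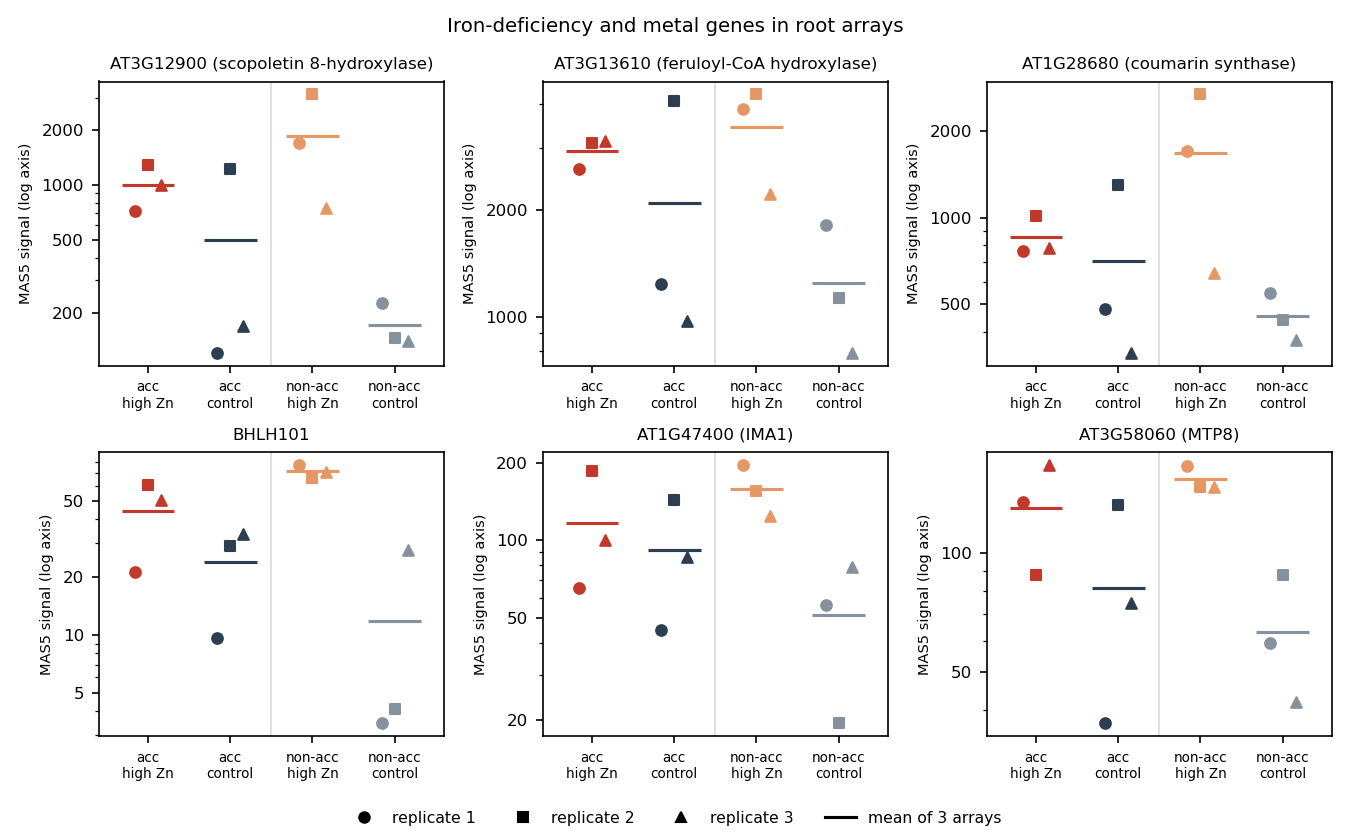
MAS5 signal (log axis) of 6 genes in each root array, with accumulating groups left and non-accumulating groups right, symbols for the replicate numbers and a line at the mean of 3 arrays. In the top row the square of accumulating control replicate 2 sits at or above the level of the high-zinc arrays, while the other two controls lie lower (120.2 and 169 for AT3G12900).

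The regulators of iron deficiency showed smaller differences. BHLH101, one of the Ib bHLH factors that partner FIT, had 21.3, 60.4 and 50.3 in high-zinc roots, against 9.63, 29.00 and 33.5 in control roots, and a difference of 0.58 (SE 0.38, 95% interval -0.25 to 1.403). Most of these values lie under the filter level of 56.3, so they are near the floor of the arrays. AT1G47400, which encodes the peptide IMA1, an early signal of iron shortage, gave 65.6, 186 and 100.1 in high-zinc roots, against 44.9, 143 and 86.4 in control roots. In both genes the groups overlapped. PYE, a bHLH repressor of iron redistribution genes, was level at 50.2, 57.99 and 55.8 in high-zinc roots and 44.02, 66.6 and 59.6 in control roots.

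The bHLH factors that act above this cascade were level or slightly lower. bHLH34 had 94.9, 96.9 and 82.2 in high-zinc roots, against 125, 117 and 103 in control roots, with no overlap, at -0.29 (SE 0.13, 95% interval -0.58 to 0.00). The related bHLH115 differed by 0.17 and bHLH121 by -0.35, with overlap in both. Over the list of regulators, 6 of 13 were tested, 3 lay above and 3 below 0, the median was 0.07 (-0.07 to 0.18 with any one control left out), and 1 was wholly lower in high-zinc roots (background 3.66%).

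Zinc uptake genes did not separate the groups. ZIP6 gave 249, 241 and 223 in high-zinc roots, against 206, 239 and 209 in control roots, and the 95% interval of its log2 difference, -0.24 to 0.48, lay inside a 2-fold difference either way. ZIP9, which zinc shortage is known to induce in A. thaliana, gave 121, 279 and 104 in high-zinc roots, against 115, 207 and 139 in control roots, with replicate 2 highest in both groups. bZIP19, the zinc sensor that switches on ZIP genes when zinc is scarce, had 120.0, 131 and 146 in high-zinc roots, against 136, 178 and 166 in control roots, at -0.24 (SE 0.21, 95% interval -0.70 to 0.22). Of 16 ZIP family and regulator genes, 3 were tested, and their median was 0.03 (-0.14 to 0.18 with any one control left out).

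Among metal carriers, AT3G58060 and MTP11 pointed opposite ways. AT3G58060 encodes MTP8, a vacuolar carrier of manganese and iron that iron shortage induces in A. thaliana, and had 135, 88.3 and 167 in high-zinc roots, against 37.1, 132 and 74.96 in control roots. Control 2 lay between the high-zinc values, as it did for AT3G12900, and the difference was 0.67 (SE 0.33, 95% interval -0.04 to 1.38), or 1.03 without that array. MTP11, a manganese carrier of Golgi-related vesicles, had 193, 164 and 183 in high-zinc roots, against 219, 228 and 231 in control roots. All 3 high-zinc arrays were lower than all controls, and the difference was -0.31 (SE 0.16, 95% interval -0.65 to 0.03). AT1G16310, another carrier of this family, ranged more widely, with 95.8, 217 and 55.7 in high-zinc roots, against 185, 86.6 and 119 in control roots. The list of metal export and sequestration genes had 4 of 20 members tested, 1 above and 3 below 0, with a median of -0.10. Of these, 1 was wholly lower (background 3.66%).

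Genes of metal binding, defence peptides and sulfur supply, which are linked to metal tolerance, overlapped between the groups. The metallothionein gene MT1C had 468, 739 and 678 in high-zinc roots, against 374, 734 and 405 in control roots, at 0.35 (SE 0.32, 95% interval -0.34 to 1.03). CCS, the copper chaperone of superoxide dismutase, had 241, 72.8 and 143 in high-zinc roots, against 168, 99.6 and 145 in control roots. Of 10 defensin genes, a family linked to zinc tolerance in A. halleri, 5 were tested with a median of 0.05, and LCR69 had the lowest p of them at -0.36 (SE 0.26). The sulfite reductase gene SIR had 519, 724 and 857 in high-zinc roots, against 698, 406 and 466 in control roots, and the ATP sulfurylase gene APS4 had 848, 788 and 2109 in high-zinc roots, against 641, 689 and 1519 in control roots. Replicate 3 was the highest array for APS4 in both groups, and the 3 sulfate assimilation genes tested had a median of 0.35, or 0.17 without control 1 and 0.18 without control 2.

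Where the groups did not overlap, the largest differences towards high zinc were modest. They are described by size and were chosen by it, so they carry no test. AT3G25930, which encodes a small protein of the universal stress type, had 207, 441 and 232 in high-zinc roots, against 156, 104 and 97.5 in control roots, at 1.15 (SE 0.34, 95% interval 0.41 to 1.88). AT4G33550, which encodes a lipid transfer-like protein and was the brightest of the 12, had 2596, 4301 and 3862 in high-zinc roots, against 1404, 1789 and 2209.5 in control roots, at 0.98 (SE 0.41, 95% interval 0.10 to 1.86). AT5G14650, which encodes a pectin-degrading enzyme of the polygalacturonase type, gave 171, 296 and 167 in high-zinc roots, against 143, 149.8 and 66.9 in control roots. In each of these the highest control came close to the lowest high-zinc array, so the groups separated by a narrow margin.

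The remaining 9 of these 12 lay between 0.68 and 0.79. They were AT5G02550, AT1G52660, AT5G10970, which encodes a C2H2 zinc finger protein, the ubiquitin protease gene UBP25, AT2G25910, AT2G29210, AT1G33440, a nitrate and peptide transporter family gene, the sugar transporter gene SFP1 and AT1G30700, which encodes a berberine bridge enzyme-like oxidase. UBP25 was among the most even, with 70.3, 58.5 and 53.9 in high-zinc roots, against 21.1, 29.8 and 43.6 in control roots. For AT2G25910 the signals were 359, 235 and 349 in high-zinc roots, against 189, 173 and 183 in control roots, with the controls close together.

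**Figure D3:**
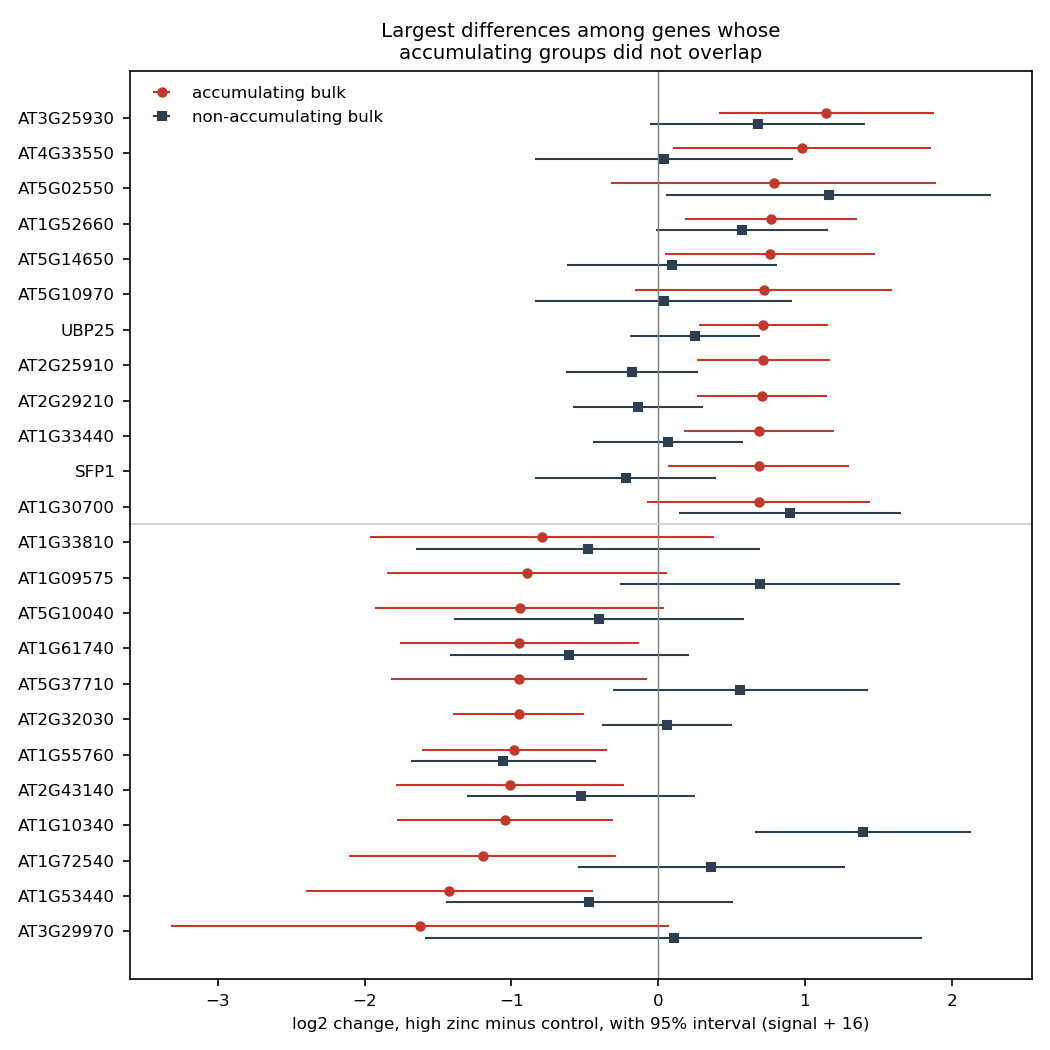
Log2 difference (high zinc minus control, signal + 16) with 95% interval for the 12 largest differences in each direction among genes whose accumulating arrays did not overlap, in the accumulating bulk (circles) and, for the same genes, in the non-accumulating bulk (squares). The accumulating values span -1.62 to 1.15, and the non-accumulating interval includes 0 for most of the genes.

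Among the same kind of genes, single named ones without overlap, the lower differences reached further. AT3G29970, which encodes a B12D protein known from low-oxygen responses, had 48.1, 139.7 and 32.8 in high-zinc roots, against 207, 188 and 298 in control roots, at -1.62 (SE 0.78, 95% interval -3.32 to 0.07). It was the lowest difference of all probe sets tested, and high-zinc replicate 2 came close to the controls. AT1G53440, a leucine-rich repeat receptor kinase gene, had 75.4, 47.3 and 50.1 in high-zinc roots, against 123, 139 and 327 in control roots, at -1.42 (SE 0.45, 95% interval -2.40 to -0.44). Control replicate 3 was far above the rest, and the difference without it was -1.01. AT1G72540, which encodes a cytoplasmic kinase, had 27.3, 49.96 and 49.4 in high-zinc roots, against 215, 54.3 and 122 in control roots, so control 2 was barely above the high-zinc arrays.

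AT2G32030, an acetyltransferase gene of the GNAT type, had the smallest unadjusted p of the comparison, 0.000487 by limma. It had 56.9, 43.7 and 64.5 in high-zinc roots, against 118, 124 and 119 in control roots, at -0.95 (SE 0.21, 95% interval -1.39 to -0.51), with controls that were nearly identical. Leaving out any one control array left it between -0.96 and -0.93. AT1G61740, a putative sulfite exporter family gene and the brightest of the 12, had 832, 715 and 610.2 in high-zinc roots, against 1227, 881 and 2476 in control roots. The others were AT1G10340, an ankyrin repeat gene (-1.04), AT2G43140, a bHLH gene (-1.01), AT1G55760, a BTB domain gene (-0.98), AT5G37710 (-0.95), AT5G10040 (-0.94), AT1G09575, which encodes a mitochondrial calcium uniporter protein (-0.89), and AT1G33810 (-0.79). Most of these have signals near or under 56.3 in high-zinc roots, where the added 16 shrinks the log2 difference.

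Because AT3G29970 and AT5G10040 both belong to the set that Arabidopsis roots switch on in low oxygen, 27 genes of that response were gathered after their values had been seen. The probe table named 13 of them and 8 were tested. All 8 had a lower mean in high-zinc roots, while 51.9% of all probe sets tested had a higher one. Their median was -0.70, against 0.01 over all probe sets. The 2 that were wholly lower (background 3.66%) are AT3G29970 and AT5G10040, the genes that prompted the list, so this count restates how it was chosen. Both also enter the count of 8 and the median, and the other members ran from -0.92 to -0.14. The mean log2 level of the 8 was 6.80, 7.23 and 6.49 in high-zinc replicates 1, 2 and 3, against 7.39, 7.29 and 8.01 in control replicates 1, 2 and 3. Control 3 was highest, and controls 1 and 2 lay just above high-zinc replicate 2. In the non-accumulating bulk the same mean was 7.39, 6.96 and 6.54 in high-zinc roots, against 6.56, 6.78 and 7.95 in control roots, so replicate 3 was the highest control there too, and the median difference of the list was -0.07.

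Control replicate 3 also stood highest in single members, but it was the lowest control for AT3G03270 and AT4G10270. Without control 3 these gave -0.27 and -0.53, beside -0.06 and -0.49 without control 1 and -0.09 and -0.47 without control 2. AT2G17850, a rhodanese-like gene, had 157, 294 and 104 in high-zinc roots, against 236, 307 and 523 in control roots, at -0.92 (SE 0.43, 95% interval -1.85 to 0.00). AT3G10020 had 116, 98.8 and 173 in high-zinc roots, against 148, 109.9 and 450.2 in control roots, and AT1G33055 had 47.5, 77.4 and 25.5 in high-zinc roots, against 67.4, 80.7 and 148 in control roots. In all 3 genes the other two controls lay within or near the high-zinc range. The list's median was -0.53 without control 3, with all 8 still below 0, and -0.88 and -0.93 without controls 1 and 2. The oxygen supply of the roots is not stated in the labels, and its part in these values was not tested.

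For STZ, CML37 and NRT2.5 the difference came through control replicate 1. STZ, a zinc finger repressor induced within minutes of many stresses, had 80.3, 96.4 and 161 in high-zinc roots, against 891, 119 and 185 in control roots. CML37, a calmodulin-like calcium sensor, had 25.1, 21.1 and 48.03 in high-zinc roots, against 195, 38.2 and 46.1 in control roots. NRT2.5, a nitrate transporter gene of nitrogen starvation, had 38.8, 62.6 and 46.4 in high-zinc roots, against 287, 48.9 and 41.5 in control roots. In all 3 genes control replicate 1 was several-fold above every other array, and the remaining controls lay among or near the high-zinc arrays. The log2 differences of -1.23, -0.95 and -0.69 became -0.41, -0.33 and 0.08 without control replicate 1. The 4 calcium signalling genes tested, CML37 among them, had a median of -0.24, which was -0.27 without control 1 and -0.08 without control 3.

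**Figure D4:**
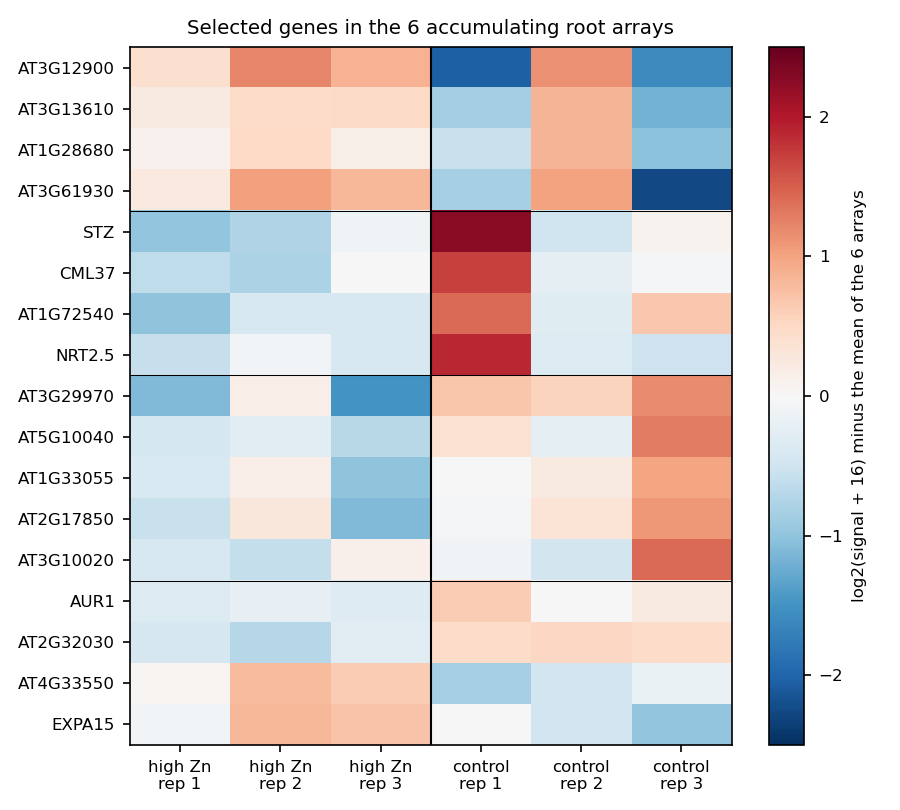
Log2(signal + 16) of 17 genes in the 6 accumulating root arrays, each minus the mean of its 6 arrays, with high-zinc arrays left of the line and controls right of it. The blocks show coumarin genes and AT3G61930 with control replicate 2 high, and STZ, CML37, AT1G72540 and NRT2.5 with control 1 high. Below them are those low-oxygen genes that had control 3 high, which not all members had, and genes in which the groups separate more evenly.

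The 3 control arrays thus each stood apart for a different set of genes. Counted over all probe sets tested, control replicate 3 lay over 2-fold above both other controls for 121 probe sets and over 2-fold below both for 130. For control 2 the counts were 56 and 116, and for control 1 they were 44 and 31. In high-zinc roots they were 20 and 25 for replicate 1, 44 and 62 for replicate 2, and 32 and 66 for replicate 3. Correlations between arrays were 0.954 to 0.959 within the high-zinc roots, 0.937 to 0.953 within the control roots and 0.940 to 0.963 between high-zinc and control arrays, so the ranges within and between the groups overlapped. The median SD on the log2 scale was 0.20 in high-zinc and 0.22 in control roots.

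Among markers of root cells, the mitotic kinase gene AUR1 separated the groups. It had 158, 174 and 159.8 in high-zinc roots, against 325, 204 and 239 in control roots, at -0.57 (SE 0.17, 95% interval -0.94 to -0.21). Its relatives did not follow, with AUR2 at 0.31 and AUR3 at -0.07. The 3 dividing cell markers tested had a median of -0.07, and 1 was wholly lower (background 3.66%). The root hair genes EXPA18 (0.47) and EXPA7 (0.20) overlapped between the groups. So did PYK10, the main beta-glucosidase of the root's ER bodies, with 1441, 1382 and 2257 in high-zinc roots, against 1272, 1160.0 and 2181 in control roots, where replicate 3 was highest in each group.

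Most plastid-encoded transcripts averaged slightly lower in high-zinc roots, but the arrays overlapped. Of 62 tested, 47 were below 0 and 15 above, with a median of -0.13, against 0.01 over all probe sets, and 4 were wholly lower (background 3.66%). Their mean log2 level was 7.80, 7.45 and 8.11 in high-zinc replicates 1, 2 and 3, against 8.01, 7.65 and 8.09 in control replicates 1, 2 and 3, so high-zinc replicate 3 was the highest of the 6 arrays. The median was -0.08 without control 3 and -0.17 without control 2. The lowest unadjusted p belonged to clpP, a subunit of the plastid protease, with 1773, 1549 and 1704 in high-zinc roots, against 2449, 2111 and 2096 in control roots, at -0.40 (SE 0.17, 95% interval -0.76 to -0.04). The ribosomal protein gene rpl16 had 238, 182 and 239.7 in high-zinc roots, against 259, 306 and 289 in control roots, while rpl33 ran the other way at 0.36. The summed signal of the plastid genes was 16722 to 24414 in high-zinc roots, against 19779 to 25968 in control roots and 133199 to 166879 in leaves of the same bulk, and these ranges overlap between the root groups. Nuclear green tissue markers gave no common direction, with 3 of 5 tested above 0 and a median of 0.09. ATPC1, a subunit of the plastid ATP synthase, had the lowest value of them at -0.86, with signals of 32.5, 25.7 and 11.4 in high-zinc roots, against 93.4, 72.00 and 18.7 in control roots.

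As groups, the cell wall genes gave no direction that held without control replicate 3. EXPA15, an alpha-expansin that loosens walls during growth, had 315, 604 and 553 in high-zinc roots, against 329.9, 235 and 159 in control roots, with control 1 just above high-zinc replicate 1, at 0.98 (SE 0.35, 95% interval 0.23 to 1.73). Of 10 expansins tested, 8 were above 0 with a median of 0.19, but without control replicate 3 it was 5 of 10 with a median of -0.01. CSLC5, a xyloglucan backbone synthase gene, had 323, 246 and 272 in high-zinc roots, against 230.1, 187 and 162 in control roots, with no overlap, at 0.51 (SE 0.20, 95% interval 0.07 to 0.95). CSLD2, a cellulose synthase-like gene of root hair growth, was wholly lower by a small margin, with 764, 734 and 678 in high-zinc roots, against 861, 766 and 851 in control roots. Of the 5 cellulose synthase family genes tested, 2 were above and 3 below 0, with a median of -0.01. Among them 1 was wholly higher (background 4.65%) and 1 wholly lower (background 3.66%). The xyloglucan endotransglucosylases had 5 of 6 above 0 and a median of 0.14, and without control replicate 3 they had 3 of 6 above 0 and a median of -0.02.

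Conjugating and recycling enzymes, and single members of some other lists, showed isolated differences. These genes were named for a low p within their lists. UGT71B5, a glycosyltransferase gene of hormone conjugation, had 65.6, 80.7 and 71.5 in high-zinc roots, against 30.002, 56.6 and 43.5 in control roots, at 0.60 (SE 0.23, 95% interval 0.09 to 1.11). Of 18 such glycosyltransferases 15 were above 0 with a median of 0.09, and 1, UGT71B5, was wholly higher (background 4.65%). Without control replicate 3 it was 7 of 18 above 0 with a median of -0.02. The glutathione transferase genes GSTU20 (0.40) and GSTU21 (-0.29) pointed opposite ways. The 9 tested had a median of 0.15, which was 0.08 without control 2 and, with 4 above and 5 below 0, -0.03 without control 3. ATG8G, a ubiquitin-like protein of autophagosomes, had 254, 223 and 195 in high-zinc roots, against 165, 184 and 148 in control roots, with no overlap, at 0.40 (SE 0.18, 95% interval 0.01 to 0.79). It was the 1 of 9 autophagy genes tested that was wholly higher (background 4.65%). SAG29, a sugar exporter gene of senescence and drought, had 45.9, 66.8 and 63.3 in high-zinc roots, against 39.99, 36.03 and 23.7 in control roots, also without overlap. It was the 1 of 5 cold and dehydration genes tested that was wholly higher (background 4.65%). UGT71B5 and SAG29 passed the filter only through high-zinc groups, which favours a rise. BCAT4, the first enzyme of methionine-derived glucosinolate synthesis, had 99.3, 307 and 299 in high-zinc roots, against 155, 165 and 97.6 in control roots, with high-zinc replicate 1 in the control range. WRKY42, a regulator of phosphate transport, had 21.8, 54.01 and 64.4 in high-zinc roots, against 34.9, 21.2 and 34.9 in control roots.

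The zinc responses of the 2 bulks were then set against each other. The difference of the responses, accumulating minus non-accumulating, passed the adjusted threshold for 0 of 12489 probe sets by limma, with 470 (3.76%) at an unadjusted p under 0.05 and a smallest adjusted p of 0.998. The 2 responses therefore were not shown to differ for any probe set. Leaving out the non-accumulating control array with the other source name also gave a count of 0. In the non-accumulating bulk the high-zinc arrays were free of overlap with the controls for 1524 probe sets (12.2%), 713 higher (5.71%) and 811 lower (6.49%).

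For the coumarin genes AT3G12900, AT3G13610 and AT1G28680 the non-accumulating high-zinc arrays lay wholly above the controls, as for 5.71% of all probe sets tested. In that bulk too, 0 of 12489 probe sets passed the adjusted threshold, so these responses were not called. The difference between the bulks was not called either. BGLU42 differed by 0.65 in the non-accumulating bulk, beside 0.17 in the accumulating bulk. AT3G12900 had 1700.1, 3127 and 745 in non-accumulating high-zinc roots, against 227, 145 and 140.1 in non-accumulating control roots, a log2 difference of 3.13 beside 1.65 in the accumulating bulk. The difference of the responses was -1.48 (SE 0.96). AT3G13610 and AT1G28680 differed by 1.48 and 1.64 in the non-accumulating bulk, beside 0.78 and 0.49 in the accumulating bulk. BHLH101 had 76.9, 65.8 and 70.5 in non-accumulating high-zinc roots, against 3.45, 4.099 and 27.7 in non-accumulating control roots, and the difference of the responses was -1.18 (SE 0.54). WRKY42 gave 1.73 in the non-accumulating bulk, and the difference of the responses was -1.35 (SE 0.42). BHLH101 and WRKY42 were tested only because their non-accumulating high-zinc groups exceeded the filter level of 56.3. The filter thus favours their rise in that bulk and a negative difference of the responses. Their other groups averaged under that level, near the floor of the arrays. Without the non-accumulating control array of another source name, AT3G12900 gave 3.34, AT3G13610 1.79, AT1G28680 1.77 and BHLH101 1.55 in that bulk.

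Among genes free of overlap in accumulating roots, the widest gaps between the bulks ran both ways. AT1G10340 had 9.16, 34.2 and 17.2 in accumulating high-zinc roots, against 62.7, 61.3 and 44.1 in accumulating control roots, and 69.8, 72.2 and 128 in non-accumulating high-zinc roots, against 33.05, 34.1 and 8.27 in non-accumulating control roots. The groups were separated in both bulks, in opposite directions, and the difference of the responses was -2.44 (SE 0.48). This gene was tested only because its non-accumulating high-zinc group exceeded the filter level, which favours a gap of this sign. Most of its signals lie under that level of 56.3, near the floor of the arrays. AT4G24780, a pectate lyase gene, had 528, 898 and 602 in accumulating high-zinc roots, against 499.5, 454 and 444 in accumulating control roots, and 262, 289.5 and 344 in non-accumulating high-zinc roots, against 614, 519.7 and 447 in non-accumulating control roots. Its difference of the responses was 1.27 (SE 0.29). The next on the negative side were AT3G29970, AT5G12340, AT1G09575 and AT1G72540, between -1.73 and -1.56. On the positive side they were ARLA1A, AT1G26650, AT3G25280 and AT5G42860, between 0.96 and 1.10. These genes were picked for the size of the gap, and none passed the adjusted test.

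Separation in the same direction in both bulks was found for 43 probe sets higher with high zinc. These are 7.40% of the 581 in the accumulating bulk, beside 5.71% of all tested that were wholly higher in the non-accumulating bulk. They are 6.03% of the 713 in the non-accumulating bulk, beside 4.65% of all tested in the accumulating bulk. For 51 probe sets it was lower in both, 11.2% of 457 (background 6.49%) and 6.29% of 811 (background 3.66%). Opposite directions were found for 18 that were lower in the accumulating and higher in the non-accumulating bulk, 3.94% of 457 (background 5.71%). For 19 it was the other way round, 3.27% of 581 (background 6.49%). These overlaps were not tested. The 5 named genes with the largest shared separation, chosen after their values were seen, were AT1G55760, AT1G58110, AT3G05220, AT1G52660 and AUR1. AT1G52660, the one that was higher, was tested only because its non-accumulating high-zinc group exceeded the filter level, which favours a rise there. Its accumulating signals all lie under that level of 56.3. AUR1 differed by -0.57 in the accumulating and -0.56 in the non-accumulating bulk, and AT1G55760 by -0.98 and -1.05. AT3G05220, which encodes a protein with a heavy metal-binding domain, had 234, 135 and 240.0 in accumulating high-zinc roots, against 282, 281 and 382 in accumulating control roots, and 126, 160.4 and 201 in non-accumulating high-zinc roots, against 277, 248 and 349.8 in non-accumulating control roots. AT1G58110, a bZIP family gene, differed by -0.63 and -0.75, and clpP by -0.40 and -0.43.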

How the data were processed

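Biotin-labelled root RNA was hybridised to ATH1 arrays, whose probes follow Arabidopsis thaliana, so sequence differences of A. halleri can lower a signal and levels were compared only within a probe set. The values the authors deposited are linear intensity signals made with MAS5, per the submitters' processing notes. The mean of each array after trimming 2% at either end was 100.0, so they were used as scaled. Neither the version of MAS5 nor its scaling target or detection calls could be taken from the labels. Precision is limited by the number of arrays, since signals carry no read depth.

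Log2 values of the signal plus 16 were fitted with limma 3.58.1 (R 4.3.3), with group means over 12 root arrays, a variance trend and Benjamini-Hochberg adjustment at 0.05 over all probe sets tested. Probe sets were tested if the mean of at least 1 root group exceeded the median of all root values, a signal of 56.3. The script was tested on simulated data. The probe table gave 1 gene to 6792 of the 12489 tested, and other probe sets are given by identifier.

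The arrays compared and 43 gene lists were chosen with earlier results of these data known. The 20 lists of single genes held 247 genes, of which 70 were named in the probe table, 23 lists came from symbol patterns, and 32 lists had a tested member. Lists are described by counts and medians, without a test. Genes named are the 12 largest differences each way among non-overlapping single genes, up to 3 members per list by p, 16 genes regardless of value, and the 5 largest differences between bulks each way. The low oxygen list, the genes sharing the pattern of control replicate 2, and those separated alike in both bulks were chosen after their values were seen.

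Alternatives were other pseudocounts, filters and normalizations, no trend, array weights, other sets of arrays, plain probe sets, a replicate block and each array left out. Leaving out replicate number 2 of both accumulating groups was added after the data were seen.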

Additional observations from a re-analysis of the deposited data

How the results depend on the processing

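The count of 0 probe sets for the zinc response in accumulating roots, and for its difference between the bulks, was the same under all alternatives run. Unadjusted counts at 0.05 were 173 to 768 for the accumulating roots (571 without control replicate 2) and 244 to 884 for the difference. The filters changed how many probe sets were tested, so these counts are not shares of the same total. Same-numbered high-zinc and control arrays of the accumulating bulk deviated together with correlations of 0.02, 0.26 and 0.25. Over all pairs of root groups the range was -0.18 to 0.40, and for replicate number 3 it was 0.13 to 0.40. The main fit did not pair the arrays by number, so an effect shared by arrays of the same number stays in its spread. With a replicate block the count was 0, with 532 at an unadjusted p under 0.05 by limma, beside 361 in the main fit. In the non-accumulating bulk, which had 0 calls, 1 probe set was called with all 24 arrays in 1 fit and 7 without replicate number 2 of both accumulating groups. With 1 array left out there it was 0 to 10, where 10 came without accumulating control replicate 2, which enters through the shared spread and through the filter, and 1 without non-accumulating high-zinc replicate 3. For the 90 genes named, none was called under any alternative, and 1124 of 1130 values, besides those with 1 array left out, kept their direction. The exceptions were ZIP9 at -0.157, AUR2 at -0.0276, PRXR1 at 0.00151 and PYE at 0.0337 without replicate number 2 of both accumulating groups, and CCS at -0.0171 and PYE at 0.0438 with array weights. With 1 array left out, 1051 of 1075 values kept their direction. The ranges of the genes that did not were -0.0399 to 0.653 for AT1G47400, -0.37 to 0.28 for ZIP9, -0.65 to 0.20 for AT1G16310, -0.34 to 0.42 for CCS, -0.10 to 0.74 for APS4, -0.15 to 0.66 for EXPA7, -0.0648 to 0.438 for PYK10, -0.192 to 0.0727 for AUR3, -0.0713 to 0.379 for bHLH115, -1.12 to 0.0788 for NRT2.5, -0.163 to 0.0676 for PYE and -0.242 to 0.1799 for GI. The cause was not tested. Intervals were wider at low signal, with a median half-width of 0.48 among the dimmest probe sets and 0.44 among the brightest.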

Other observations

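Further genes overlapped between high-zinc and control roots. GI, a large clock protein gene that peaks towards the evening, had 644, 552 and 362 in high-zinc roots, against 605, 596 and 399.5 in control roots, with replicate 3 lowest in both groups. PRXR1, a class III peroxidase gene and among the brightest named, had 5966, 5971 and 6338 in high-zinc roots, against 5795, 6628 and 6512 in control roots, and its 95% interval of -0.37 to 0.27 was among the narrower ones. DFR, an enzyme of anthocyanin synthesis, had 55.8, 65.01 and 70.5 in high-zinc roots, against 69.1, 50.8 and 41.4 in control roots. GH3.17, which conjugates auxin to glutamate, had 138, 116 and 113 in high-zinc roots, against 100.1, 132 and 57.4 in control roots. The 7 genes tested under the symbol pattern of cytochrome P450s had a median of 0.04, beside 0.01 over all probe sets. The pattern also took in CYP71, whose symbol is not that of a P450. The 5 cold and dehydration genes, with SAG29 as the member without overlap, had a median of 0.00.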
